A study of Rattus norvegicus with 36 samples.

Results

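Solute carriers (Slc genes) encode membrane proteins that move sugars, amino acids, ions, metals, vitamins and metabolites across cell and organelle membranes. The genes described here are the 126 whose array symbol began with Slc and a digit, out of 6394 genes with a single symbol on the array. The array held 169 Slc genes in all. The other 43 were left out by rule, namely the families Slc3, Slc6, Slc7, Slc12 and Slc22 and the genes Slc5a3, Slc9a3, Slc16a6, Slc25a25 and Slc30a1. Each gene was represented by its brightest probe, and the 126 members spanned 40 families. Membership went by symbol alone, so Slc4a1ap, named for a protein that binds an anion exchanger and not itself a carrier, was counted.

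Kidney RNA of 31 male rats aged 6 to 8 weeks was measured on 36 CodeLink arrays, which carry 1 oligonucleotide probe per spot and 1 label, and 5 rats had 2 arrays each. Their strain is not named in the labels. The untreated normal group held 5 rats. For ischemia, blood flow to the kidney was stopped for 40 min and restored, and the kidney was taken 2 h (4 rats) or 8 h (3 rats) later. A further 3 rats, taken at 2 h, were also given 50 µg of αMSH, the melanocortin hormone known to dampen inflammation. Mercuric chloride (HgCl2), a nephrotoxic metal salt, was given at 4 mg/kg and studied at 2 h and at 8 h (3 rats each). Cisplatin, a nephrotoxic platinum drug, was given at 20 mg/kg and studied at 2 h (3 rats). As controls, 3 rats had sham surgery of 40 min with the kidney taken at 8 h, and 4 rats were volume depleted by 20 mg/kg of furosemide, a loop diuretic, repeated at 8 h, with a low-sodium diet, and studied at 24 h. The labels number the rats of each group, and RNA came from kidney tissue as a whole, so fewer cells of a type and less RNA per cell cannot be told apart.

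The proximal tubule reabsorbs most of the filtered glucose, phosphate, bicarbonate, citrate, vitamins and nucleosides through carriers of its luminal membrane, and passes them to the blood through carriers of its basolateral membrane. The sodium gradient made by the Na,K-ATPase drives many of the luminal carriers. Other members sit in the mitochondrial inner membrane, the Golgi, lysosomes and the endoplasmic reticulum, where they exchange metabolites, nucleotide sugars, amino acids and glucose 6-phosphate.

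Levels are log2 of the intensity over the array median, with a floor at 0.1 of the median, and a difference between groups is on the same log2 scale. The arrays came in 2 lots of 24 and 12, and each group was set against the normal rats of its own lot. Normal rats 1 to 3 served for ischemia, αMSH, HgCl2 at 2 h and volume depletion, and normal rats 11 and 12 served for HgCl2 at 8 h, cisplatin and sham. The floor held 1.65% to 12.91% of the probes of an array, and profiles correlated with the median array at 0.9163 to 0.9889 (Pearson's r across probes, which are not independent replicates). The lowest value of both belonged to ischemia 8 h rat 3, and the values of sham rat 3 had to be moved by 2 lines to line up with their probes. Counts without both rats are given below. The markers of kidney tubules were present: none of the 10 proximal tubule genes on the array was at the floor in any rat. Of the 126 members, 6 could be tested in no comparison: Slc1a2 (glutamate), Slc5a7 (choline), Slc17a6 (vesicular glutamate), Slc24a2 (calcium) and Slc26a5 (prestin) lay at the floor in nearly all rats and Slc14a1 (urea) was missing in all but 1 of the rats of lot 1. A further 117 were tested in all 15 comparisons and 3 in some, Slc9a5, Slc16a3 and Slc26a8. The number of arrays limited the precision.

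Ischemia at 8 h had the most carriers called of the 8 comparisons with normal, and more of them lower than higher. A change was called at a limma adjusted p under 0.05 (Benjamini-Hochberg over all probes tested). The count at 8 h of ischemia was 55 of 119 tested members, which is 46.2% against 41.7% of all probes. Of these 21 rose and 34 fell, or 17.6% and 28.6% of members, against 20.8% and 20.9% of all probes. The median change was -0.12 over the tested members and 0.01 over all probes. A limma fit on these 2 groups alone called 25 members.

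After 2 h of ischemia 16 of 119 members were called (13.4%, against 14.7% of all probes), 11 higher and 5 lower, against 7.36% and 7.37% of all probes. With αMSH beside the ischemia the count was 12 of 119 (10.1%, against 13.3% of all probes), 9 higher and 3 lower, against 6.68% and 6.58%. HgCl2 at 2 h called 16 of 118 members (13.6%, against 7.68% of all probes), 4 higher and 12 lower. These are 3.39% and 10.2% of members, against 3.07% and 4.61% of all probes. HgCl2 at 8 h called 23 of 119 members (19.3%, against 10.9% of all probes), 10 higher and 13 lower, or 8.4% and 10.9% of members against 5.27% and 5.67% of all probes. Counts without ischemia 8 h rat 3 and sham rat 3 were 21 at 2 h of ischemia, 16 with αMSH, 59 at 8 h of ischemia, 23 for HgCl2 at 2 h and 30 for HgCl2 at 8 h. With array quality weights in the fit they were 30, 28, 69, 35 and 40. The share of all probes called was not counted for these or the other alternative fits.

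Leaving out single rats moved the mercury counts most. The HgCl2 2 h count of 16 was 9 without HgCl2 2 h rat 1 or rat 3, 10 without normal rat 1 and 28 without ischemia 8 h rat 3. The HgCl2 8 h count of 23 was 8 without normal rat 11 or normal rat 12 and 13 without HgCl2 8 h rat 1. Of the 20 members named for HgCl2 at 8 h, 13 lost their call without 1 of these or other rats of the comparison. Those that kept it were Slc20a1, Slc40a1, Slc38a2, Slc25a33, Slc37a4, Slc25a13 and Slc29a3.

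No member was called after cisplatin (0 of 119, against 0.574% of all probes), after sham surgery (0 of 119, against 0.351%) or in volume depletion (0 of 118, against 0.169%). All probes called higher and lower were 0.532% and 0.0425% after cisplatin, 0.298% and 0.0531% after sham surgery and 0.074% and 0.0951% in volume depletion. At an unadjusted limma p under 0.05 there were 4, 9 and 12 members in these comparisons. With array quality weights in the same limma fit the counts were 5, 9 and 8. Over the 8 comparisons with normal, 24 members were called only higher, 41 only lower, 2 in both directions (Slc26a4 and Slc40a1) and 53 in none. The same tally was not made over all probes, so it does not set the members apart.

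**Figure D1:**
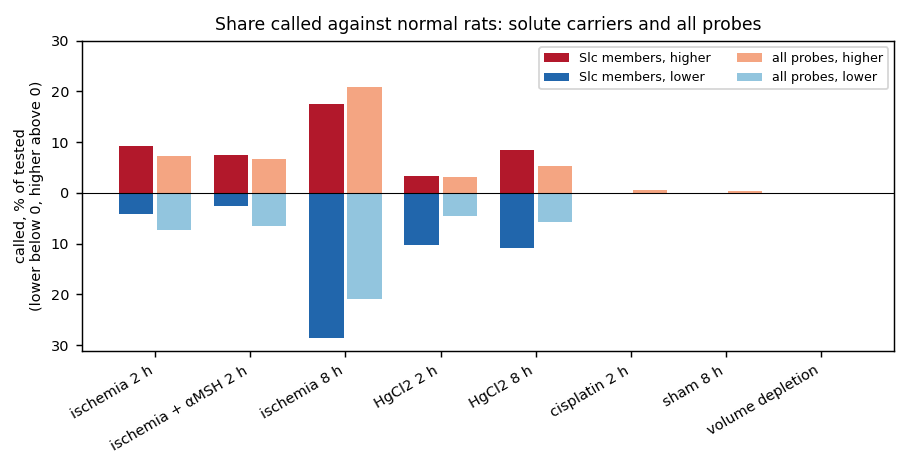
Share of tested features called against normal rats (limma adjusted p under 0.05, y axis, % of tested) in each treatment, for the Slc members (dark bars) and all probes (pale bars), higher above 0 and lower below 0. At 8 h of ischemia the lower bar of the members reaches 28.6% and that of all probes 20.9%.

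**Figure D2:**
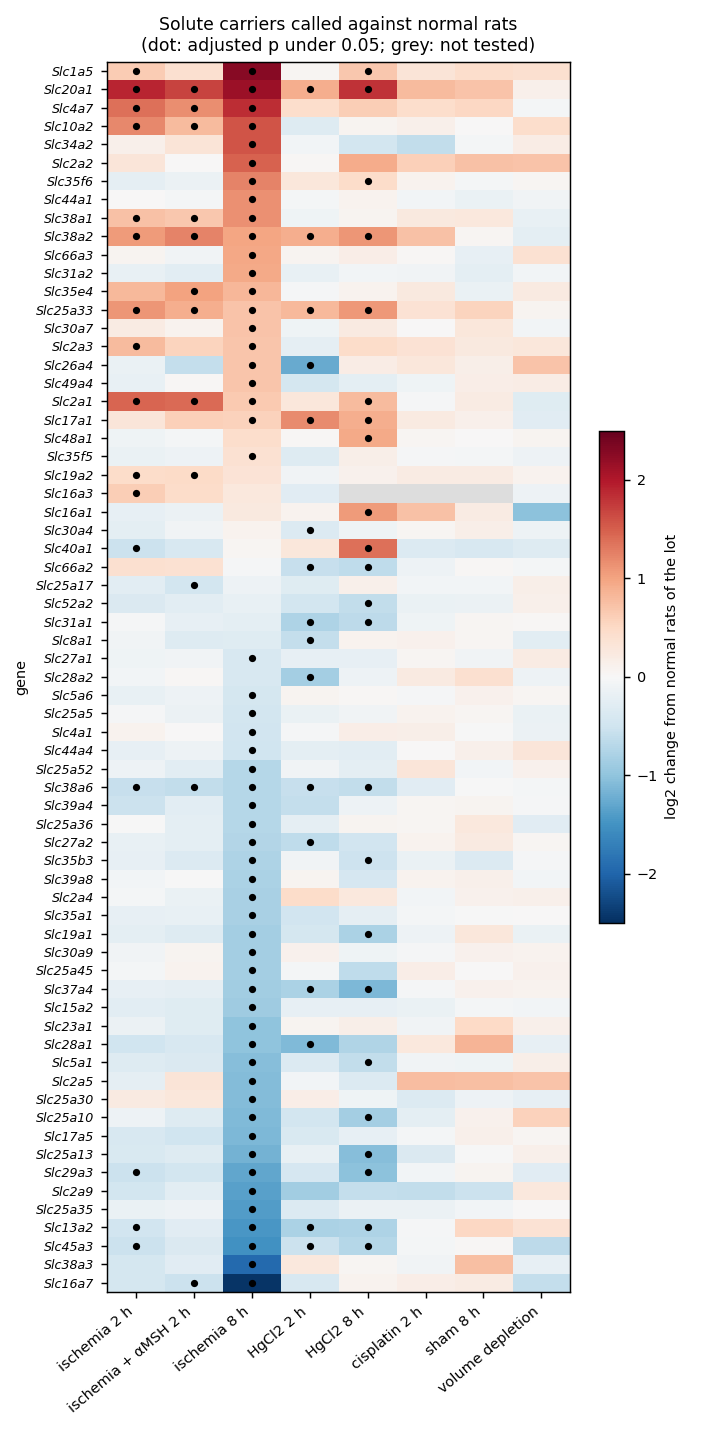
Log2 change from the normal rats of the lot (colour) for the 67 members called at least once (rows, ordered by the change at 8 h of ischemia) in the 8 comparisons with normal (columns). A dot marks an adjusted p under 0.05 and grey a change that was not tested. Slc1a5 stands at the top with 2.27 and Slc16a7 at the bottom with -2.45 at 8 h of ischemia.

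Slc20a1, Slc38a2, Slc25a33 and Slc38a6 were the 4 members called in at least 5 comparisons with normal, in each case the 3 ischemia groups and both mercury groups. Slc20a1 encodes a sodium-phosphate cotransporter found in most cell types. Its levels were -0.18, -0.33 and -0.04 in normal rats 1 to 3 and -0.16 and -0.25 in normal rats 11 and 12. They were 1.66, 1.68, 1.18 and 2.33 after 2 h of ischemia, 1.71, 1.58 and 2.55 after 8 h, and 1.72, 1.48 and 1.58 after 8 h of HgCl2. Every one of these treated rats lay above every normal rat. The change was 1.90 ± 0.20 (SE; 3.72-fold, adjusted p = 1.77e-07) at 2 h of ischemia, 1.69 ± 0.21 with αMSH (adjusted p = 3.43e-06), 2.13 ± 0.21 at 8 h (4.38-fold, adjusted p = 1.79e-08), 0.91 ± 0.21 at 2 h of HgCl2 (adjusted p = 0.00835) and 1.80 ± 0.24 at 8 h of HgCl2 (3.47-fold, adjusted p = 1.19e-05). Without HgCl2 2 h rat 3 the mercury change at 2 h was 0.83 and missed the threshold (adjusted p = 0.0503). The sham rats, at 0.56, 0.46 and 0.53, and the cisplatin rats, at 0.49, 0.62 and 0.66, also lay above all normal rats, but their changes of 0.72 ± 0.24 (adjusted p = 0.388) and 0.79 ± 0.24 (adjusted p = 0.227) were not called. Lack of overlap with normal rats 11 and 12 was common. It held for 43 of 119 members after sham surgery and 30 of 119 after cisplatin, with none called. At 8 h of HgCl2 it held for 59 of 119, with 23 called. The share of all probes without overlap was not counted, so these counts give no result about the members.

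Slc38a2, a sodium-coupled carrier of small neutral amino acids that is known to respond to amino acid shortage and cell shrinkage, had similar changes in all 5 groups. Its levels in normal rats 1 to 3 were 3.05, 2.67 and 2.95. After 2 h of ischemia they were 4.09, 3.94, 3.78 and 4.02, and after 2 h of HgCl2 they were 3.78, 3.81 and 3.78. The groups did not overlap with normal, and the changes were 1.07 ± 0.17 (SE) at 2 h of ischemia (adjusted p = 7.71e-05), 1.24 ± 0.18 with αMSH, 0.99 ± 0.18 at 8 h, 0.90 ± 0.18 at 2 h of HgCl2 and 1.10 ± 0.20 at 8 h of HgCl2 (2.14-fold, adjusted p = 0.000659). In the cisplatin group rats 2 and 3, at 3.73 and 3.38, were above the normal rats of the lot (2.6 and 2.44), while rat 1 was at 2.64. That change of 0.73 ± 0.20 was not called (adjusted p = 0.147).

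Slc25a33 encodes a mitochondrial carrier of pyrimidine nucleotides. Its changes were 1.10 ± 0.17 (SE) at 2 h of ischemia (adjusted p = 3.02e-05), 0.90 ± 0.18 with αMSH, 0.72 ± 0.18 at 8 h of ischemia (adjusted p = 0.002), 0.82 ± 0.18 at 2 h of HgCl2 and 1.09 ± 0.20 at 8 h of HgCl2. The 8 h ischemia rats were at 1.91, 2.09 and 2.80, above the 1.70, 1.52 and 1.43 of normal rats 1 to 3, and rat 3 was the highest. Slc38a6, a less studied relative of Slc38a2, fell in the same 5 groups by a similar amount, from -0.58 at 2 h of ischemia and of HgCl2 to -0.71 at 8 h of ischemia (SE 0.14 to 0.17). Its level in ischemia 8 h rat 3 was 0.44, against -0.41 and -0.39 in the other 2 rats and 0.75, 0.51 and 0.52 in the normal rats. The mercury call of Slc38a6 at 2 h was lost without normal rat 1 and without HgCl2 2 h rats 1 or 3, with an adjusted p of 0.0636 to 0.0981.

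**Figure D3:**
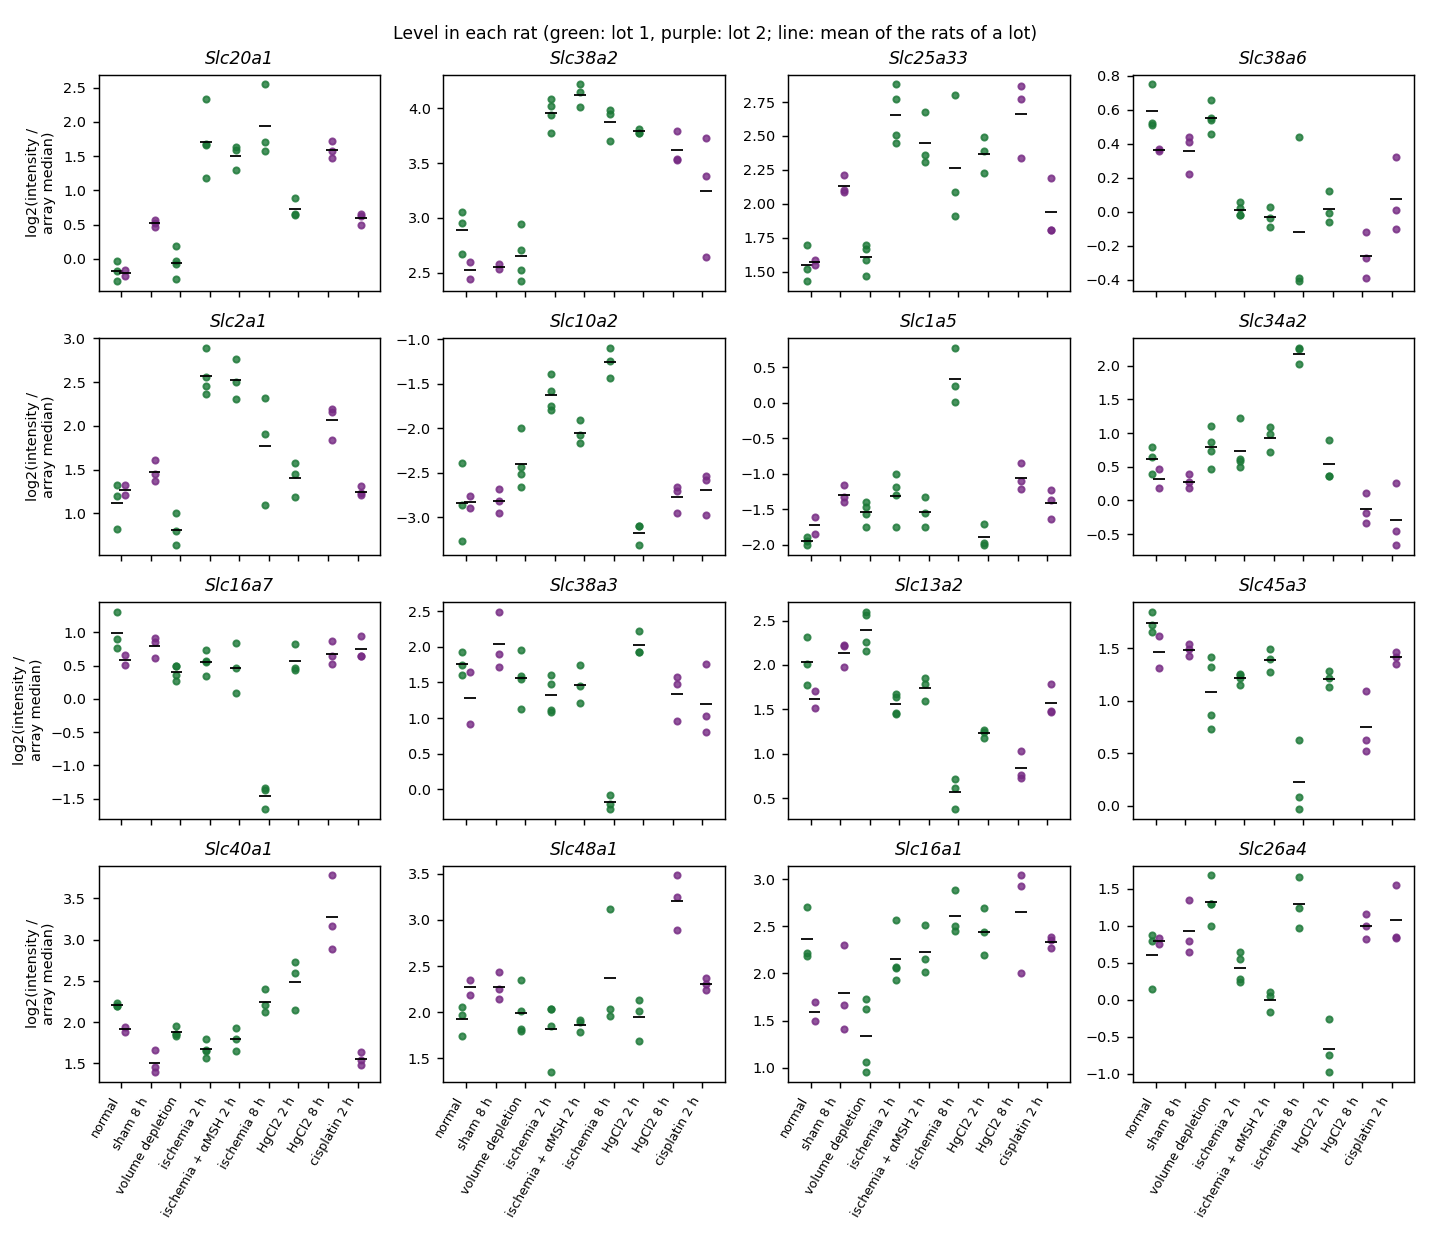
Level in each rat (points, y axis, log2 of intensity over the array median) of 16 members in the 9 groups (x axis), green for lot 1 and purple for lot 2, with the mean of the rats of a lot as a line. Slc20a1 lies at 1.18 or above in every ischemia rat and below 0 in every normal rat, while Slc16a7 and Slc38a3 are low in the 3 ischemia 8 h rats alone.

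Among the 11 members that rose at 2 h of ischemia, 7 had a promoter in the RefSeq table of the rat assembly GRCr8, which holds 250 bases before and 50 after each annotated start and matched 105 of the 126 members. In 4 of these 7 (57.1%) the window held TGANTCA, a loose form of the AP-1 (Fos and Jun) site that takes any middle base. It was in 10 of 105 member promoters (9.52%) and 2453 of 33469 promoters in the table (7.33%). TGANTCA was 1 of 6 motifs looked for in 8 lists of called members, and its 57.1% was the highest share of any. For the same letters the other lists gave 0 of 5 among those that fell at 2 h of ischemia, 5 of 15 (33.3%) and 1 of 27 (3.7%) among those that rose and fell at 8 h of ischemia, 1 of 3 (33.3%) and 2 of 12 (16.7%) at 2 h of HgCl2, and 1 of 7 (14.3%) and 1 of 12 (8.33%) at 8 h of HgCl2. The motif reads the same on both strands and each match was counted once. The match was picked out after the values were seen, and it describes letters, not binding. The 4 are shown to let the place of the letters be seen, each as the 250 bases before the start, read 5′ to 3′ on the gene's strand, with TGANTCA in capitals. They are the bile acid carrier Slc10a2, the lactate carrier Slc16a3, the thiamine carrier Slc19a2 and the neutral amino acid carrier Slc38a1. For Slc38a1 the start in the table lies 326 bases inside the annotated gene (chr7:129612414-129681727), so its window lies within the gene; the other 3 windows end at the base before the gene.
Slc10a2, chr16:91087839-91088088, strand +: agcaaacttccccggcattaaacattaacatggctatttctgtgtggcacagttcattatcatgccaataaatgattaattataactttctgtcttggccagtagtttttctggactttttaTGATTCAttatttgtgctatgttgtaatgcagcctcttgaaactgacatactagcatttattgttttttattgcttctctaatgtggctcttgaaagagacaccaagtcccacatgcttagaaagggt
Slc16a3, chr10:106712078-106712327, strand +: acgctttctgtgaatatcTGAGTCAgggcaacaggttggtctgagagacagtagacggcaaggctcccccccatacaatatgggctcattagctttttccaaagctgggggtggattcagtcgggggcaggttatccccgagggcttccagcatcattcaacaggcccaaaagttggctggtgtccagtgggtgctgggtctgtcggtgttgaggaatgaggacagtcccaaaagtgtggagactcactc
Slc19a2, chr13:79134868-79135117, strand +: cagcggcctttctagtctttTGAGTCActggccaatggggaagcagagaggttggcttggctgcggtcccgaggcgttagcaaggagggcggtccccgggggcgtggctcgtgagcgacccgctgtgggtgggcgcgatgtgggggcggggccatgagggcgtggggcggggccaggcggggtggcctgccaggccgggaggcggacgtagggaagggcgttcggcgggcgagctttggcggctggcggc
Slc38a1, chr7:129681402-129681651, strand -: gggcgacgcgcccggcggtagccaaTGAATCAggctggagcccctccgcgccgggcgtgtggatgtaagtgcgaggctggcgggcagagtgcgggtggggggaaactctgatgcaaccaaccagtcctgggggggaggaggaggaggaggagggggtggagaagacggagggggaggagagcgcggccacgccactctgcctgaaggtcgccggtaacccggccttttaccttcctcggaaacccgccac
The match began at position -128 from the start in Slc10a2, -232 in Slc16a3, -230 in Slc19a2 and -225 in Slc38a1. Its middle base differed: it read TGATTCA in Slc10a2, TGAGTCA in Slc16a3 and Slc19a2 and TGAATCA in Slc38a1. These genes changed at 2 h of ischemia by 1.21 ± 0.17 (SE; adjusted p = 9.21e-06), 0.62 ± 0.19 (0.0267), 0.46 ± 0.14 (0.0224) and 0.74 ± 0.17 (0.00265). The call of Slc16a3 was lost without normal rat 3 or ischemia 2 h rats 2 or 4 (adjusted p of 0.0661 to 0.166) and with the groups compared alone (0.0675). With a floor of 0.2 the changes of Slc10a2 and Slc38a1 were 0.69 and 0.41. The call of Slc19a2 was not refitted under other settings, and ischemia 2 h rat 2 lay apart for it (0.75, the others 1.08 to 1.12). Its change with αMSH, 0.47, lost its call in 6 of 42 settings. Of the other motifs searched on both strands, the antioxidant response letters TGACNNNGC were in 21 of 105 member promoters (20.0%, against 12.1% of all; 3 of the 7 that rose at 8 h of HgCl2, 42.9%), the heat shock letters GAANNTTC in 5 (4.76%, against 8.59%) and the amino acid response letters TGATGNAA in 2 (1.9%, against 3.98%). The HNF1 motif and the HNF4 letters CAAAGTCC were in none of the member windows and in 0.335% and 1.4% of all windows.

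Of the 3 phosphate carriers of families Slc20 and Slc34 tested, 2 rose at 8 h of ischemia, Slc20a1 and Slc34a2, and none fell. Among all probes 20.8% rose and 20.9% fell there. Slc34a2, a sodium-phosphate cotransporter best known from lung and intestine, was at 2.26, 2.03 and 2.24 in the 8 h ischemia rats and at 0.65, 0.39 and 0.80 in normal rats 1 to 3. The groups lay far apart, with a change of 1.57 ± 0.21 (SE; 2.96-fold, adjusted p = 1.99e-06), and the change at 2 h was 0.12. After 8 h of HgCl2 the rats were at 0.11, -0.18 and -0.33, all below the 0.47 and 0.18 of the normal rats of that lot, a change of -0.46 ± 0.24 that was not called (adjusted p = 0.273). The probes of Slc20a2, the close relative of Slc20a1, all changed upward at 8 h of ischemia and of HgCl2 but differed in their calls. Its brightest probe changed by 0.49 ± 0.31 (adjusted p = 0.222) and 0.93 ± 0.35 (adjusted p = 0.0905). That probe was not called in any comparison with normal. The other probes were called at 8 h of ischemia, with 0.38 and 1.09, and 1 of them at 8 h of HgCl2, with 1.09. Slc17a1, a luminal carrier of phosphate and urate in the proximal tubule, rose most in the mercury groups. Its levels were -0.96, -1.0 and -0.91 at 2 h of HgCl2 against -1.98, -2.27 and -2.19 in the normal rats, a change of 1.19 ± 0.20 (2.28-fold, adjusted p = 0.000441), with 0.90 ± 0.22 at 8 h of HgCl2 (adjusted p = 0.00873) and 0.57 ± 0.20 at 8 h of ischemia (adjusted p = 0.0237). The HgCl2 8 h call of Slc17a1 was lost without normal rat 11, normal rat 12 or HgCl2 8 h rat 2 (adjusted p of 0.0566 to 0.0778). Slc17a5, the sialic acid exporter of lysosomes, fell by 1.12 on the log2 scale at 8 h of ischemia (adjusted p = 0.00208; 0.135 with the groups compared alone), but its rats overlapped with normal: rats 1 and 2 were at 1.34 and 1.28 and rat 3 at 2.74, against 3.48, 2.67 and 2.57.

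Carriers of neutral amino acids moved both ways. Of 9 amino acid carriers tested, 3 rose and 1 fell at 2 h of ischemia, against 7.36% and 7.37% of all probes. At 8 h 3 rose and 2 fell, against 20.8% and 20.9% of all probes. Slc1a5, an exchanger of glutamine and other neutral amino acids, had the largest rise of all members. The 8 h ischemia rats were at 0.77, 0.23 and 0.01, and normal rats 1 to 3 were at -1.89, -2.0 and -1.94. The change was 2.27 ± 0.18 (SE; 4.84-fold, adjusted p = 3.37e-10). At 2 h of ischemia it was 0.63 ± 0.17 (adjusted p = 0.00969), with rats at -1.75, -1.29, -1.0 and -1.19, and at 8 h of HgCl2 it was 0.67 ± 0.20 (adjusted p = 0.0277). That mercury call was lost without normal rat 11, normal rat 12 or HgCl2 8 h rat 1 (adjusted p of 0.0764 to 0.277). Slc38a1, a sodium-coupled glutamine carrier, rose by 1.14 ± 0.18 at 8 h of ischemia (adjusted p = 1.25e-05) and by 0.67 ± 0.18 with αMSH (adjusted p = 0.0118; 0.0721 without αMSH rat 3). The second value was 0.34 and not called with a floor of 0.2 (adjusted p = 0.0902). Normal rats 1 to 3 were at -2.56, -2.7 and -2.69, all below that floor.

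Slc38a3, the glutamine carrier of the basolateral proximal tubule membrane that supplies ammonia production, fell in ischemia at 8 h. The rats were at -0.20, -0.08 and -0.27, and all other 28 rats lay between 0.80 and 2.49. The change was -1.95 ± 0.25 (SE; 3.85-fold lower, adjusted p = 7.64e-07), and at 8 h of HgCl2 it was 0.05 ± 0.28 (adjusted p = 0.992). Slc1a1, a glutamate carrier, was not called in any comparison. Its 8 h mercury rats were at 1.14, 1.49 and 1.86, below the normal rats of the lot at 2.79 and 2.26, a change of -1.03 ± 0.34 (adjusted p = 0.055).

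Members of the sugar families were divided as well. Of 11 members in the families Slc2, Slc45 and Slc50, 3 rose and 4 fell at 8 h of ischemia, against 20.8% and 20.9% of all probes. At 2 h 2 rose and 1 fell, against 7.36% and 7.37% of all probes. Slc2a1, the glucose carrier of most cell types, was at 2.46, 2.56, 2.37 and 2.89 after 2 h of ischemia and at 2.76, 2.5 and 2.31 with αMSH, against 0.82, 1.20 and 1.33 in normal rats 1 to 3. The groups did not overlap, and the changes were 1.45 ± 0.20 (SE; 2.74-fold, adjusted p = 9.22e-06) and 1.41 ± 0.21 (adjusted p = 3.99e-05). The 8 h ischemia rats were spread at 2.32, 1.91 and 1.10, with rat 3 inside the normal range and a change of 0.66 ± 0.21 (adjusted p = 0.0144). At 8 h of HgCl2 the change was 0.80 ± 0.24 (adjusted p = 0.0291), lost without either normal rat of the lot or HgCl2 8 h rats 1 or 3 (adjusted p of 0.0719 to 0.21). Slc2a3, a high-affinity glucose carrier, rose by 0.80 ± 0.21 at 2 h of ischemia (adjusted p = 0.0111; 0.0506 without normal rat 2), and its other probe changed by 0.03 there, with 0.41 for the mean of both. Slc2a2, the glucose carrier of the basolateral proximal tubule membrane, rose at 8 h of ischemia, with rats at 1.93, 2.42 and 3.79 against 1.61, 1.06 and 1.05. Its change was 1.47 ± 0.30 (adjusted p = 0.000286), and rat 3 stood above the other 2. Without that rat it was 0.93 (adjusted p = 0.00177), and with the groups compared alone the call was lost (adjusted p = 0.0727).

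The sugar and sodium-coupled carriers that fell at 8 h of ischemia included Slc45a3, of a family named for sucrose transport, the urate carrier Slc2a9, the fructose carrier Slc2a5, the insulin-responsive Slc2a4 and the luminal glucose carrier Slc5a1. Slc45a3 was at -0.03, 0.08 and 0.63, below 1.85, 1.66 and 1.72 in normal rats, and changed by -1.52 ± 0.17 (SE; adjusted p = 7.72e-08). It was also lower at 2 h of ischemia (-0.53, adjusted p = 0.0218; 0.0549 to 0.0986 without ischemia 2 h rat 2 or normal rat 1), at 2 h of HgCl2 (-0.54, adjusted p = 0.0489, not refitted under other settings) and at 8 h of HgCl2 (-0.72, adjusted p = 0.0117; 0.0501 to 0.216 without HgCl2 8 h rats 1 or 3 or normal rat 11, and 0.0612 with the groups compared alone). Slc2a9 changed by -1.36 ± 0.43 (adjusted p = 0.0128), and without ischemia 8 h rat 3 by -1.05 (adjusted p = 0.0709) or without normal rat 2 by -1.22 (adjusted p = 0.0529). Slc5a1 changed by -1.07 ± 0.17 at 8 h of ischemia (adjusted p = 2.26e-05) and by -0.62 ± 0.19 at 8 h of HgCl2 (adjusted p = 0.0377; 0.0919 to 0.329 without either normal rat or HgCl2 8 h rats 1 or 3). Slc5a6, the carrier of biotin and pantothenate, fell by 0.44 on the log2 scale at 8 h of ischemia.

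The bile acid carrier Slc10a2, which in the kidney takes filtered bile acids back from the tubule fluid, rose in all 3 ischemia groups from a level near the floor of -3.32. It was at -1.75, -1.39, -1.58 and -1.79 at 2 h and at -1.44, -1.24 and -1.10 at 8 h, against -2.39, -2.86 and -3.27 in normal rats 1 to 3. Every ischemia rat, those with αMSH at -2.17, -2.08 and -1.91 included, lay above these normal rats. The changes were 1.21 ± 0.17 (SE) at 2 h, 0.79 ± 0.18 with αMSH (adjusted p = 0.00371) and 1.58 ± 0.18 at 8 h (adjusted p = 1.31e-07). Their size depended on the floor: with a floor of 0.2 they were 0.69, 0.27 and 1.06, and the αMSH change was not called (adjusted p = 0.0833), nor was it with the groups compared alone (0.0718). At 2 h of HgCl2 its rats were at -3.10, -3.10 and -3.31, and the change was not called. The probes of Slc10a1, the liver form, disagreed. The brightest changed by -0.27 at 8 h of ischemia and -0.12 at 8 h of HgCl2, neither called, and the other by -1.27 ± 0.40 (adjusted p = 0.0119) and -2.13 ± 0.44 (adjusted p = 0.00189).

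Of the 8 bicarbonate and anion exchangers tested, 2 rose and 1 fell at 8 h of ischemia, against 20.8% and 20.9% of all probes. Slc4a7, a sodium bicarbonate cotransporter that loads cells with base, was near the floor in normal rats 1 to 3, at -2.95, -2.73 and -3.12. It was at -1.58, -1.27, -1.48 and -1.93 after 2 h of ischemia and at -0.88, -1.03 and -1.37 after 8 h, with no overlap. The changes were 1.37 ± 0.22 (SE; adjusted p = 9.07e-05), 1.17 ± 0.24 with αMSH and 1.84 ± 0.24 at 8 h (adjusted p = 1.04e-06). With a floor of 0.2 the first 2 were 0.76 and 0.56, both called. Slc26a4 (pendrin), the chloride-bicarbonate exchanger of collecting duct intercalated cells, went opposite ways. It was at -0.75, -0.26 and -0.98 at 2 h of HgCl2 and at 1.24, 0.97 and 1.66 at 8 h of ischemia, with normal rats 1 to 3 at 0.87, 0.79 and 0.14. The changes were -1.26 ± 0.23 (2.4-fold lower, adjusted p = 0.00124) and 0.69 ± 0.23 (adjusted p = 0.0198), and at 8 h of HgCl2 the change was 0.19. The 8 h ischemia call was not refitted under other settings. Normal rat 3 lay apart from the other normal rats of both lots, which were at 0.76 to 0.87. Slc4a4, the basolateral bicarbonate exporter of the proximal tubule, was not called in any comparison. Its 8 h ischemia rats were at 0.39, 0.43 and 1.34 and normal rats 1 to 3 at 2.02, 1.26 and 0.78.

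The largest fall of all members was that of Slc16a7, a high-affinity carrier of pyruvate and lactate. It was at -1.34, -1.37 and -1.65 in the 8 h ischemia rats and at 0.76, 1.31 and 0.90 in normal rats 1 to 3. No rat of any other group was below 0.09. The change was -2.45 ± 0.17 (SE; 5.45-fold lower, adjusted p = 3.66e-11), against 0.09 ± 0.19 at 8 h of HgCl2. With αMSH it changed by -0.53 ± 0.17 (adjusted p = 0.038), a call lost without αMSH rats 1 or 2 or normal rat 2 (adjusted p of 0.0812 to 0.279), -0.34 without αMSH rat 1 and -0.36 without the lot term. After 2 h of ischemia alone Slc16a7 averaged 0.55, against 0.99 in normal rats 1 to 3, and was not called. Slc16a1, the general lactate carrier, rose at 8 h of HgCl2 by 1.06 ± 0.29 (adjusted p = 0.0162). Its rats were at 3.04, 2.93 and 2.00 against 1.70 and 1.49 in the normal rats of the lot, with rat 3 closest to normal. That call was lost without either normal rat or HgCl2 8 h rats 1 or 2 (adjusted p of 0.0722 to 0.168) and also without the lot term (0.60, adjusted p = 0.1) and with the groups compared alone (0.0698), and its other probe rose by 0.81 at 8 h of ischemia (adjusted p = 0.0493). Normal rats 1 to 3 were higher, at 2.18, 2.7 and 2.22.

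Slc13a2, the luminal carrier that takes back citrate and succinate, was lower in 4 of the comparisons with normal. It was at 0.61, 0.38 and 0.72 after 8 h of ischemia, at 1.27, 1.18 and 1.24 after 2 h of HgCl2 and at 0.76, 0.73 and 1.03 after 8 h of HgCl2. Normal rats 1 to 3 were at 2.32, 2.01 and 1.77 and normal rats 11 and 12 at 1.52 and 1.71, above all of these. The changes were -1.46 ± 0.14 (SE; adjusted p = 1.02e-08), -0.80 ± 0.14 (adjusted p = 0.000695) and -0.77 ± 0.16 (adjusted p = 0.00166; 0.0537 without normal rat 12). At 2 h of ischemia it was -0.48 ± 0.13 (adjusted p = 0.0138), and without normal rat 1 it was -0.34 (adjusted p = 0.147) and without the lot term -0.31 (adjusted p = 0.0977). Its other probe was called at 8 h of ischemia (-1.21) and not in the mercury groups (-0.61 and -0.63, adjusted p of 0.0651 and 0.073). The sham rats, at 2.21, 1.98 and 2.22, were above the normal rats of their lot (0.52 ± 0.16, adjusted p = 0.246).

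Of 5 nucleoside carriers tested, 2 fell at 8 h of ischemia, against 20.9% of all probes, and 1 at 2 h, against 7.37%. With HgCl2 2 fell at 2 h, against 4.61% of all probes, and 1 at 8 h, against 5.67%. None rose in these groups. Slc28a1, the luminal carrier of pyrimidine nucleosides, was at -1.03, -0.82 and -1.0 after 2 h of HgCl2 and normal rats 1 to 3 were at 0.41, 0.00 and 0.07, a change of -1.11 ± 0.27 (SE; 2.16-fold lower, adjusted p = 0.0116). At 8 h of ischemia rats 1 and 2 were at -1.53 and -1.06 and rat 3, at 0.06, was within the normal range. Slc28a2, the purine counterpart, changed by -0.84 ± 0.20 at 2 h of HgCl2 (adjusted p = 0.00819). Both mercury calls were lost without 1 of 2 rats each, normal rat 1 or HgCl2 2 h rat 1 for Slc28a1 and normal rat 2 or HgCl2 2 h rat 3 for Slc28a2 (adjusted p of 0.053 to 0.0622). Slc29a3, the nucleoside carrier of lysosomes, was at 1.96, 1.80 and 2.68 after 8 h of ischemia and at 2.15, 2.32 and 2.71 after 8 h of HgCl2, below all normal rats at 3.28 to 3.70. The changes were -1.29 ± 0.17 (adjusted p = 8.22e-07) and -1.03 ± 0.19 (adjusted p = 0.000419), and its other probe gave -1.02 in both. At 2 h of ischemia Slc29a3 changed by -0.53 (adjusted p = 0.0191), a call lost without ischemia 2 h rat 2 (0.0535) or normal rat 1 (0.156).

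Among 7 vitamin and heme carriers, Slc19a1 (reduced folate) and Slc23a1 (ascorbate) fell at 8 h of ischemia, by 0.84 and 1.00 on the log2 scale, and none rose. For all probes the shares there were 20.9% lower and 20.8% higher. At 8 h of HgCl2 Slc19a1 changed by -0.79 ± 0.25 (SE; adjusted p = 0.0401; 0.115 to 0.211 without either normal rat or HgCl2 8 h rats 1 or 2). The riboflavin carrier Slc52a2 fell there too. Slc48a1, which moves heme out of lysosomes, rose at 8 h of HgCl2, where its rats were at 3.25, 2.89 and 3.48 and those of normal rats 11 and 12 at 2.19 and 2.35. The change was 0.94 ± 0.25 (adjusted p = 0.0155; 0.0627 to 0.158 without either normal rat or HgCl2 8 h rat 3). Ischemia 8 h rats 1 and 2 were at 1.96 and 2.03, near the normal 1.97, 1.74 and 2.06, and rat 3 was at 3.12.

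Of 14 metal carriers tested, 2 rose and 3 fell at 8 h of ischemia, against 20.8% and 20.9% of all probes. With HgCl2 2 fell at 2 h, against 4.61%, and 1 rose and 1 fell at 8 h, against 5.27% and 5.67%. Slc40a1 (ferroportin), the only known cellular exporter of iron, was the one that rose. Its levels were 3.17, 2.89 and 3.78 after 8 h of HgCl2, against 1.88 and 1.94 in normal rats 11 and 12, 1.39, 1.45 and 1.66 in the sham rats and 1.48, 1.64 and 1.54 in the cisplatin rats of the same lot. No rat of another group reached 2.89. The change was 1.37 ± 0.17 (SE; 2.58-fold, adjusted p = 6.93e-06), and a dimmer probe of the gene gave 1.79 ± 0.26 (adjusted p = 4.33e-05). In ischemia at 2 h it moved the other way, with rats at 1.57, 1.65, 1.66 and 1.79 against 2.23, 2.19 and 2.19 (-0.53 ± 0.15, adjusted p = 0.0135), and averaging the probes of the gene took that call away. Slc31a1, the high-affinity copper importer, was at 1.59, 1.73 and 1.59 after 2 h of HgCl2 and at 1.41, 1.41 and 1.64 after 8 h, below all normal rats (2.10 to 2.61). The changes were -0.77 ± 0.16 (adjusted p = 0.00289) and -0.66 ± 0.18 (adjusted p = 0.0143; 0.0518 to 0.139 without either normal rat or HgCl2 8 h rats 1 or 2). Slc39a8, an importer of zinc and manganese, fell at 8 h of ischemia by 0.79 ± 0.12 on the log2 scale (adjusted p = 1.2e-05), and at 8 h of HgCl2 changed by -0.42 ± 0.14 (adjusted p = 0.0523). Slc30a9, of the zinc carrier family Slc30, fell at 8 h of ischemia by 0.84 with its brightest probe, and its other probe was not called there but at 2 h of HgCl2 (-0.55, adjusted p = 0.0281).

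The mitochondrial carriers (Slc25 family) were the largest family, with 16 tested. After 8 h of ischemia 8 of them fell and 1, Slc25a33, rose, where 20.9% of all probes fell and 20.8% rose, and their median change was -0.36, against 0.01 over all probes. Slc25a35, a carrier without an assigned substrate, was at -1.43, -1.62 and -1.77, and normal rats 1 to 3 were at -0.33, -0.27 and -0.01 (-1.40 ± 0.11, SE, adjusted p = 5.51e-10). Slc25a13, the aspartate-glutamate carrier of the malate-aspartate shuttle, was at 2.52, 2.46 and 3.27 there and at 2.38, 2.21 and 2.80 after 8 h of HgCl2, below every normal rat (3.49 to 4.23). Its changes were -1.18 ± 0.17 (adjusted p = 5.68e-06) and -1.07 ± 0.20 (adjusted p = 0.000492), and a dimmer probe gave -1.0 and -1.12. Slc25a10, the dicarboxylate carrier, fell in both groups, by 1.10 ± 0.19 and 0.85 ± 0.21 on the log2 scale (adjusted p of 4.89e-05 and 0.0089), the second lost without either normal rat of the lot (0.0593 to 0.105). Slc25a30, a kidney mitochondrial carrier, changed by -1.09 ± 0.15 at 8 h of ischemia (adjusted p = 1.55e-06), and its other probe was not called. Slc25a5, an ADP/ATP exchanger, fell by 0.46 ± 0.14 (adjusted p = 0.0088). Slc25a17, a peroxisomal cofactor carrier, was lower in ischemia with αMSH (-0.45, adjusted p = 0.0331). The adjusted p was 0.106 to 0.198 without normal rats 1 or 2 or αMSH rats 1 or 2. Without the lot term the change was -0.28 (adjusted p = 0.189). After 2 h of ischemia alone Slc25a17 averaged 0.55, against 0.82 in normal rats 1 to 3, and was not called.

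**Figure D4:**
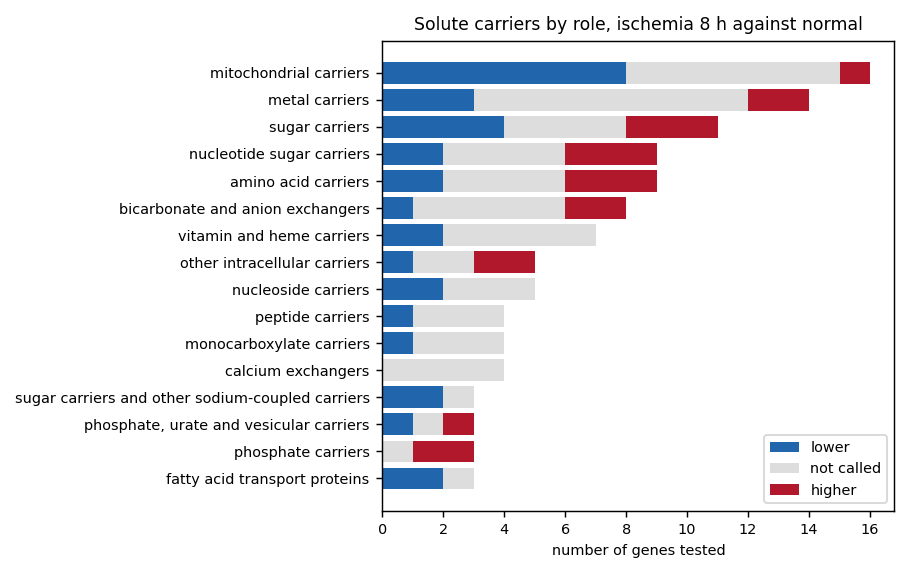
Number of members tested (x axis) in each role with at least 3 tested members (y axis), divided into lower (blue), not called (grey) and higher (red) at 8 h of ischemia against normal rats. The mitochondrial carriers show 8 lower and 1 higher of 16, the phosphate carriers 2 higher and none lower of 3. Among all probes 20.9% were lower and 20.8% higher.

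Slc37a4, which passes glucose 6-phosphate into the endoplasmic reticulum for glucose release, fell in 3 groups. Its levels were 3.32, 3.26 and 3.16 after 2 h of HgCl2, 2.56, 2.71 and 2.79 after 8 h of HgCl2 and 2.82, 3.06 and 3.67 after 8 h of ischemia, all below the normal rats (3.79 to 4.31). The changes were -0.80 ± 0.17 (SE; adjusted p = 0.00372), -1.12 ± 0.19 (2.17-fold lower, adjusted p = 0.0002) and -0.86 ± 0.17 (adjusted p = 0.000191). Slc66a2, a protein related to lysosomal amino acid exporters, was called lower in both mercury comparisons with normal, by 0.58 at 2 h and 0.63 at 8 h on the log2 scale, and both calls were lost without at least 1 of several rats (adjusted p of 0.0857 to 0.169). The nucleotide sugar family Slc35 had 3 higher and 2 lower of 9 at 8 h of ischemia, against 20.8% and 20.9% of all probes. Slc35f6 led, at -0.19, -0.23 and 0.30 against -1.07, -1.42 and -1.36 (1.24 ± 0.12, adjusted p = 9.36e-09), and Slc35b3, the carrier of the sulfate donor of the Golgi, was lower by 0.77 ± 0.13 (adjusted p = 4.85e-05). Slc35e4 rose in ischemia with αMSH by 1.00 ± 0.32 (adjusted p = 0.041), but lay at the floor in 5 rats and lost the call with other floors and without 4 single rats. After 2 h of ischemia alone it averaged -2.25, against -3.07 in normal rats 1 to 3, and was not called. Slc44a1, a choline carrier, was at 3.43, 3.15 and 3.28 at 8 h of ischemia, above 2.48, 2.19 and 1.76 (1.15 ± 0.14, adjusted p = 3.26e-07), and its second probe also gave 1.15.

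The fatty acid transport protein Slc27a2, an acyl-CoA synthetase of the proximal tubule, fell at 8 h of ischemia (-0.74 ± 0.19, SE, adjusted p = 0.00228) and at 2 h of HgCl2 (-0.64 ± 0.19, adjusted p = 0.0323; 0.0568 to 0.168 without 1 of 5 rats). Of 4 peptide carriers 1 fell at 8 h of ischemia, against 20.9% of all probes. It was Slc15a2, by 0.88 on the log2 scale, and Slc15a4, a lysosomal carrier, was not called against normal. The sodium-calcium exchanger Slc8a1 was lower at 2 h of HgCl2 (-0.59 ± 0.18, adjusted p = 0.0445), a call lost in 22 of 42 alternative settings. The 2 sodium-proton exchangers and the 2 vesicular amine carriers held no call at 8 h of ischemia.

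Between 2 h and 8 h of ischemia the share of carriers that changed was close to that of all probes. Of 120 tested 49 differed (40.8%, against 37.7% of all probes), 18 higher and 31 lower at 8 h, against 20.5% and 17.2% of all probes. The largest differences were higher for Slc1a5 (1.64 ± 0.17, SE, adjusted p = 3.99e-08), Slc35f6 (1.48 ± 0.11), Slc34a2 (1.45 ± 0.20), Slc2a2 (1.17 ± 0.28) and Slc44a1 (1.13 ± 0.13). They were lower for Slc16a7 (-2.0 ± 0.16), Slc38a3 (-1.50 ± 0.23), Slc25a30 (-1.31 ± 0.14), Slc25a35 (-1.24 ± 0.11) and Slc45a3 (-0.99 ± 0.16). Without ischemia 8 h rat 3 the difference of Slc2a2 was 0.63 (adjusted p = 0.0255). Between 2 h and 8 h of HgCl2, groups of different lots set against each other through their normal rats, only Slc40a1 of 117 was called (1.08 ± 0.23, adjusted p = 0.0198; 0.855% of members, against 0.693% of all probes, 0.501% higher and 0.192% lower). Slc26a4 had a larger difference, 1.46 ± 0.35, that just missed the threshold (adjusted p = 0.0502). The call of Slc40a1 was lost without normal rat 11, normal rat 12 or HgCl2 2 h rat 1 (adjusted p of 0.0818 to 0.108) and with the groups compared alone (0.173), and the count was 3 without ischemia 8 h rat 3.

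No carrier was called between ischemia with αMSH and ischemia alone (0 of 120, against 0% of all probes, limma), and 2 members had an unadjusted p under 0.05. Slc10a2 was among them, at -2.17, -2.08 and -1.91 with αMSH and at -1.75 to -1.39 without, a difference of -0.43 with a 95% interval of -0.77 to -0.08 (adjusted p = 1.0). The rats of these 2 groups did not overlap for 6 of the 120 members, this gene among them, and the share over all probes was not counted.

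At 2 h, mercury and ischemia differed in 20 of 118 members (16.9%, against 15.1% of all probes), 5 higher and 15 lower with HgCl2, against 6.98% and 8.09% of all probes. Slc10a2 (-1.54 ± 0.17, SE, adjusted p = 3.61e-07), Slc2a1 (-1.16 ± 0.20), Slc26a4 (-1.09 ± 0.22), Slc2a3 (-1.01 ± 0.21) and Slc20a1 (-0.99 ± 0.20) were the lowest with HgCl2. Slc17a1 (0.89 ± 0.19, adjusted p = 0.00173), Slc40a1 (0.82 ± 0.15), Slc38a3 (0.71 ± 0.23), Slc4a11 (0.59 ± 0.19) and Slc35f6 (0.53 ± 0.11) were higher. The calls of Slc38a3 and Slc4a11, a borate-related carrier of the bicarbonate family, were lost without 1 of several rats of either group (adjusted p of 0.0624 to 0.285). With a floor of 0.2 the differences of Slc10a2 and Slc2a3 were -0.69 and -0.56, and Slc4a11 was at 0.39 without HgCl2 2 h rat 3.

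At 8 h the 2 injuries were measured in different lots with separate normal rats. Of the 21 members that rose with ischemia 7 rose with HgCl2 (33.3% of the first list and 70.0% of the 10 of the second, against 19.1% and 75.8% over all probes), namely Slc1a5, Slc2a1, Slc17a1, Slc20a1, Slc25a33, Slc35f6 and Slc38a2. Of the 34 that fell with ischemia 10 fell with HgCl2 (29.4%, and 76.9% of 13, against 21.8% and 81.1% over all probes), namely Slc5a1, Slc13a2, Slc19a1, Slc25a10, Slc25a13, Slc29a3, Slc35b3, Slc37a4, Slc38a6 and Slc45a3. Called with HgCl2 but not with ischemia were Slc16a1, Slc40a1 and Slc48a1, all higher, and Slc31a1, Slc52a2 and Slc66a2, all lower. The difference between the injuries itself was called for 18 of 118 members (15.3%, against 11.8% of all probes), 11 higher and 7 lower with HgCl2, against 5.06% and 6.79% of all probes. It was 28 without ischemia 8 h rat 3 and 11 without normal rat 12.

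Of those 18, Slc16a7 (2.54 ± 0.25, SE, adjusted p = 2.73e-07), Slc38a3 (2.00 ± 0.37), Slc40a1 (1.32 ± 0.23), Slc25a35 (1.25 ± 0.17) and Slc25a30 (0.98 ± 0.22) were the highest with HgCl2. Slc34a2 (-2.02 ± 0.32, adjusted p = 0.000132), Slc1a5 (-1.60 ± 0.27), Slc10a2 (-1.51 ± 0.27), Slc4a7 (-1.21 ± 0.36) and Slc38a1 (-1.08 ± 0.27) were the lowest. The call of Slc4a7 was lost without 1 of 6 single rats of the groups and their normal rats (adjusted p of 0.053 to 0.12) and with a floor of 0.05 (0.0682). Without the lot term the difference of Slc25a30 was 0.42 and not called (adjusted p = 0.0713). With the groups compared alone Slc25a30 (adjusted p = 0.11), Slc40a1 (0.0529), Slc4a7 (0.167) and Slc38a1 (0.131) all lost their calls, and with a floor of 0.2 the difference of Slc38a1 was -0.72. For Slc48a1 and Slc16a1, called with HgCl2 alone, the difference was not called.

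**Figure D5:**
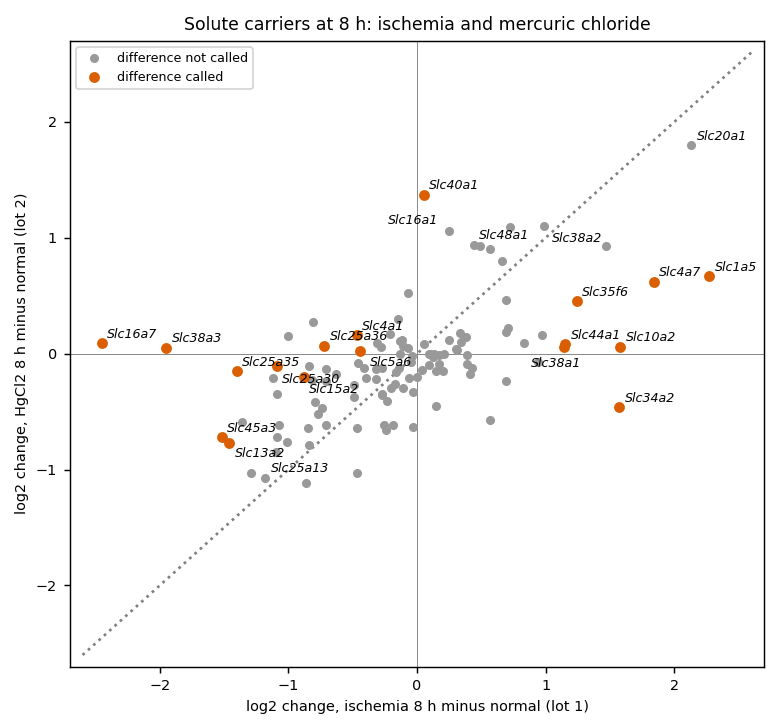
Log2 change from normal at 8 h of ischemia (x axis, lot 1) and at 8 h of HgCl2 (y axis, lot 2), 1 point per member, with orange points where the difference between the injuries was called and a dotted line where both are equal. Slc16a7 (-2.45 and 0.09) and Slc38a3 (-1.95 and 0.05) lie far left of the line and Slc40a1 (0.05 and 1.37) far above it.

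Against sham surgery at the same time, 33 of 118 members differed at 8 h of ischemia (28%, against 22.9% of all probes), 10 higher and 23 lower (11.9% and 11% of all probes), by way of the normal rats of each lot. Slc1a5 (1.84 ± 0.27, SE, adjusted p = 1.94e-05), Slc34a2 (1.61 ± 0.32), Slc10a2 (1.56 ± 0.27), Slc20a1 (1.42 ± 0.32) and Slc4a7 (1.32 ± 0.36) were the highest. Slc38a3 (-2.69 ± 0.37), Slc16a7 (-2.65 ± 0.25), Slc13a2 (-1.99 ± 0.21), Slc2a5 (-1.85 ± 0.54) and Slc28a1 (-1.85 ± 0.41) were the lowest, and the call of Slc2a5 was lost without normal rat 12 (adjusted p = 0.0565) and with the groups compared alone (0.0975). Without the lot term the difference of Slc28a1 was -1.22. Against sham in the same lot, 27 of 120 members differed at 8 h of HgCl2 (22.5%, against 13% of all probes), 8 higher and 19 lower, against 5.87% and 7.18% of all probes. Slc40a1 was the highest (1.78 ± 0.16, adjusted p = 1.82e-08), followed by Slc20a1 (1.08 ± 0.21), Slc38a2 (1.06 ± 0.19), Slc48a1 (0.94 ± 0.23) and Slc16a1 (0.86 ± 0.26). Slc28a1 (-1.60 ± 0.27), Slc13a2 (-1.30 ± 0.14), Slc37a4 (-1.23 ± 0.17), Slc2a5 (-1.11 ± 0.36) and Slc29a3 (-1.09 ± 0.17) were the lowest. The calls of Slc16a1 and Slc2a5 were lost without 1 of several rats of either group (adjusted p of 0.0527 to 0.184). Sham rats themselves lay above normal, without a call, for Slc28a1 (0.84 ± 0.30), Slc2a5 (0.76 ± 0.40), Slc38a3 (0.75 ± 0.28) and Slc13a2 (0.52 ± 0.16). For Slc16a7, Slc37a4 and Slc29a3 the sham change was 0.20, 0.11 and 0.06. These shifts are part of the differences from sham. Against normal, Slc28a1 and Slc2a5 were not called at 8 h of HgCl2.

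Of 18 genes tested that drive, anchor or regulate carriers, 2 rose and 5 fell at 8 h of ischemia, 1 fell at 2 h, and 2 fell at each time of HgCl2. Of all probes 20.8% rose and 20.9% fell at 8 h of ischemia, 7.37% fell at 2 h, and 4.61% and 5.67% fell at 2 h and 8 h of HgCl2. The Na,K-ATPase subunit Atp1b3 (0.80 ± 0.14, SE, adjusted p = 8.3e-05) and the kinase Oxsr1 (0.68) rose at 8 h of ischemia, and the scaffolds Pdzk1 (-0.86) and Nherf1 (-0.57), the kinase Wnk1 (-0.81), the carbonic anhydrase Car14 (-1.01) and the transcription factor Hnf4a (-1.38 ± 0.25, adjusted p = 9.16e-05) fell. Car14 changed by -1.91 at 2 h and -1.72 at 8 h of HgCl2.

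After 8 h of ischemia 8 of the 10 proximal tubule marker genes fell, with a median of -1.0 over the list, at 8 h of HgCl2 4 fell (median -0.57), and at 2 h of HgCl2 1, Gatm (-1.30). Their summed level ranged from 8.5 to 9.2 in normal rats, 8.51 to 8.62 at 2 h of ischemia, 7.67 to 8.23 at 8 h of ischemia, 8.27 to 8.36 at 2 h of HgCl2 and 7.65 to 8.01 at 8 h of HgCl2. Of the loop, distal tubule and collecting duct markers 3 of 4 fell at 8 h of ischemia (summed level 4.48 to 5.7, normal 5.37 to 6.64) and none was called in the mercury groups. Of 9 leukocyte genes 2 rose and 3 fell at 2 h of ischemia, 4 rose at 8 h of ischemia and 2 at 8 h of HgCl2 (summed level 5.17 to 5.92 in normal rats, 5.87 to 6.09 and 5.41 to 6.1), with Cd4 at the floor in 19 rats. The red cell gene Alas2, the only one of its list on the array, rose by 2.49 at 2 h and 1.92 at 8 h of ischemia and by 1.77 at 8 h of HgCl2. No fat or adrenal gene was called in a comparison with normal, and Plin1 and Cyp11b1 were at the floor in 26 and 29 of the 31 rats. Of 5 endothelial genes 1 rose and 1 fell at 8 h of ischemia. Over all probes 20.8% rose and 20.9% fell at 8 h of ischemia, and 7.36% and 7.37% at 2 h. With HgCl2 4.61% of all probes fell at 2 h, and 5.27% rose and 5.67% fell at 8 h. The part of the cell types of these lists in the carriers' changes was not tested.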

How the data were processed

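The deposited table held 1 value per probe and array for 9911 probes and 36 arrays. The deposited values were read as 2 to the power of a CodeLink intensity over the array median: their log2 came in whole steps of 0.0001 with an array median of 1.0, and 0.5 stood for a missing value (0.97% of values). Per the labels' protocols RNA was extracted with TRIZOL and RNeasy, and labelled and hybridised by the CodeLink standard protocol. The scanner software, background correction and scaling were not given in the sources used here. That intensity, with a floor of 0.1, was taken to log2, and the 2 arrays of a rat were averaged. The values of sham rat 3 were moved by 2 lines, which raised their correlation with the other arrays from 0.0652 to 0.9843.

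Symbols came from the platform annotation (7178 probes with 1 symbol, 21 with several, 2712 with none). Each gene used its brightest probe among those measured on at least 2 in 3 arrays. A probe was tested with at least 2 measured rats in each group compared, 2 in 3 of all rats measured and 3 rats above the floor. The limma fit (R 4.3.3, limma 3.58.1, statmod 1.5.0) had group and lot as terms, 31 rats, 9 groups and 21 residual degrees of freedom, with p-values adjusted over all probes tested in each of 15 comparisons. The code was tested on simulated data.

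The labels do not tie arrays to lots. The lots used here follow an earlier processing of these data, which parted the arrays by their values and took the numbering of normal rats (1 to 3, and 11 and 12) to separate them. With the lots so drawn, 47 probes were missing on every array of lot 2 and none of lot 1, and 8 the other way round. The lots were drawn from the same deposited values, so these probes are no independent check of them. The series text gives 3 normals for each lot, and the labels give 5 normal rats on 7 arrays. The p-values measure the spread between the rats as labelled. Same-numbered rats of different groups did not pair: the correlations of their deviations ran from -0.59 to 0.535 with a median of 0.0171, and 33 of 109 were over 0.1.

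Named were up to 10 members each way in a comparison with normal and up to 5 in others, members called in at least 5 comparisons with normal, and 1 member per larger family. Members, families, partner and marker lists were chosen with earlier results of these data known. Alternatives were the floor, quantile scaling, no lot term, no filter, first arrays, array quality weights, a replicate block, groups compared alone, the mean of probes and each rat left out.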

Additional observations from a re-analysis of the deposited data

Results flagged for a closer look

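In 8 of 134 sets of 4 or 5 rats of a group, 1 rat lay far from the others for a named member. Chance flags about 1 in 20 such sets. In the normal group these were Slc19a1 in rat 2 (level 3.53, the others 3.91 to 4.05), Slc26a4 in rat 3 (0.14, the others 0.76 to 0.87), Slc2a1 in rat 1 (0.82, the others 1.2 to 1.33) and Slc2a5 in rat 1 (2.22, the others 0.65 to 0.97). At 2 h of ischemia they were Slc19a2 in rat 2 (0.75, the others 1.08 to 1.12) and Slc34a2 in rat 1 (1.22, the others 0.5 to 0.61). In volume depletion they were Slc2a2 in rat 2 (1.57, the others 2.05 to 2.12) and Slc38a1 in rat 1 (-2.37, the others -3.03 to -2.96).

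The effect of a treatment differed between times or injuries, by limma's test of the difference itself, for 49 members between 8 h and 2 h of ischemia, for 20 between HgCl2 and ischemia at 2 h, for 1 (Slc40a1) between 8 h and 2 h of HgCl2 and for 18 between HgCl2 and ischemia at 8 h.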

How the results depend on the processing

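The 132 changes of members named by the rule were refitted under 42 other settings: none was reversed, and 87 were called in every setting. Apart from leaving out rats, named changes lost their call most often with the groups compared alone (22), with no lot term (8), with a floor of 0.2 and with first arrays (4 each), and 11 moved by over 1.5 times with a floor of 0.2. Counts of members called moved most with 3 choices, and the cause was not tested. For all counts of this section the share of all probes called was not counted, so they do not set the members apart. With array quality weights the counts were 30 at 2 h of ischemia, 28 with αMSH, 35 and 40 at 2 h and 8 h of HgCl2, 5 for cisplatin, 9 for sham and 8 for volume depletion. Between treated groups the weights gave 35 (HgCl2 against ischemia at 2 h), 18 (HgCl2 at 8 h against 2 h), 34 (HgCl2 against ischemia at 8 h), 56 (ischemia at 8 h against sham) and 46 (HgCl2 at 8 h against sham). With no lot term they were 5 for cisplatin, 3 for sham, 26 for HgCl2 at 8 h against 2 h, 38 for HgCl2 against ischemia at 8 h and 59 for ischemia at 8 h against sham. With the groups compared alone, which uses fewer rats, they were 25 at 8 h of ischemia, 4 for sham, 28 for ischemia at 8 h against 2 h, 6 for HgCl2 against ischemia at 8 h and 0 for HgCl2 at 8 h against 2 h.

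The single call between 8 h and 2 h of HgCl2 became 2 with a floor of 0.2 and 3 with quantile scaling, with the mean of the probes of a gene and without the 2 rats. Those 2 rats, ischemia 8 h rat 3 and sham rat 3, were left out together as a choice made after seeing the data, and volume depletion then had 1 call. Quantile scaling gave 8 higher and 6 lower members with αMSH, against 9 and 3.

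The replicate block (replicate number, correlation -0.0179) gave 16, 12, 55, 15 and 23 members called at 2 h of ischemia, with αMSH, at 8 h of ischemia and at 2 h and 8 h of HgCl2, and 2 for HgCl2 at 8 h against 2 h. It moved no other count by over 1.5 times.

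Leaving out 1 rat at a time, counts against normal ran from 14 to 22 (ischemia 2 h), 8 to 16 (αMSH), 47 to 61 (ischemia 8 h), 9 to 28 (HgCl2 2 h), 8 to 30 (HgCl2 8 h), 0 to 1 (cisplatin and volume depletion) and 0 to 0 (sham). The cisplatin call came without cisplatin rat 1, and the volume depletion call without volume depletion rat 2, ischemia 8 h rat 3 or HgCl2 8 h rat 3. Between treated groups they ran from 0 to 0 (αMSH against ischemia 2 h), 41 to 57 (ischemia 8 h against 2 h), 15 to 28 (HgCl2 against ischemia at 2 h), 0 to 3 (HgCl2 8 h against 2 h), 11 to 28 (HgCl2 against ischemia at 8 h), 24 to 43 (ischemia 8 h against sham) and 18 to 32 (HgCl2 8 h against sham). Probes at the floor hold only an upper bound, and lot 2 had 2 normal rats.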
